A study of Mus musculus with 13 samples.

Results

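Skap2 and Snx10 are neighbouring genes on mouse chromosome 6, and no protein-coding gene lies between them or between Skap2 and the Hoxa cluster in RefSeq's gene order. They were described here by every listed peak that touched the Snx10 window (mm9, chr6:51450000-51560000, 110.001 kb) or the Skap2 window (chr6:51795000-51975000, 180.001 kb, with the start of transcription near 51.962 Mb). Of 109165 peaks in 9 lists, 22 were members, 11 in each window: 13 H3K4me3 peaks, 4 H3K27me3 peaks and 5 peaks of the fusion protein NUP98-PHF23 (NP23). The members were selected on measured values, namely H3K4me3 listed in the NP23 lines but not in the control line and NP23 peaks in 961C. That pattern is therefore described below and was not tested.

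SKAP2 is a cytoplasmic adaptor protein that acts with Src family kinases in the adhesion and migration of blood cells, macrophages among them. SNX10 is a sorting nexin with a phosphoinositide-binding PX domain, and it serves the traffic of endosomes and lysosomes, best known from osteoclasts. The Hoxa genes beyond Skap2 encode homeobox transcription factors of blood stem and progenitor cells. H3K4me3, trimethylation of histone H3 at lysine 4, is found at active promoters. H3K27me3 is placed by Polycomb complexes and goes with silent genes. The PHD finger of PHF23 is a fold that can bind H3K4me3.

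The study mapped both marks by chromatin immunoprecipitation and sequencing in 4 cultured, cytokine-independent mouse cell lines. Lines 748T and 106A came from NUP98-PHF23 pre-T LBL of separate C57BL/6 mice, and 961C from a NUP98-PHF23 AML of the same strain. Line 7298/2, from an SCL-LMO1 pre-T LBL on a C57BL/6+C3H hybrid background, is labelled as the control, and its label names no NP23. Each line was 1 culture from 1 leukaemia with 1 library per mark, and NP23 was mapped once, through its V5 tag, in 961C. No source used here gives ages or the promoter driving each transgene. In 7298/2 oncogene and strain differ together from the other lines, and in 961C cell type and library do, so neither can be told apart. The lists hold pileup heights (reads stacked at a position) and no read totals. Depth is therefore unknown, and heights were ranked within a list only. The median H3K4me3 peak reached 38 reads in 961C, 97 in 106A and 76 in both 748T and 7298/2. The labelled cell types were not checked against marker genes here, since the gene table at hand is on another build than the peaks.

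The promoters are shown first, because the Skap2 start lay under the member peaks and the 2 genes differ in base composition. Both are the 250 bases before the RefSeq start (build GRCm38.p6, whose positions are not those of the mm9 peaks). They are written 5′ to 3′ along the gene, with the GC box GGGCGG in capitals on either strand. Skap2 is read from the minus strand, at GRCm38.p6 chr6:52012550-52012799. Snx10 is read from the plus strand, at GRCm38.p6 chr6:51523653-51523902, before the first of its 3 starts in the table.
Skap2: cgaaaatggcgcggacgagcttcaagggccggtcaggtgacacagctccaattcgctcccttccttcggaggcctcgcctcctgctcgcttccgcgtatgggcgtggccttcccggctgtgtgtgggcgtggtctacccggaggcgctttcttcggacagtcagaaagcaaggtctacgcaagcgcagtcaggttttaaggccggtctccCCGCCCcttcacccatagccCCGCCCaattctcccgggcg
Snx10: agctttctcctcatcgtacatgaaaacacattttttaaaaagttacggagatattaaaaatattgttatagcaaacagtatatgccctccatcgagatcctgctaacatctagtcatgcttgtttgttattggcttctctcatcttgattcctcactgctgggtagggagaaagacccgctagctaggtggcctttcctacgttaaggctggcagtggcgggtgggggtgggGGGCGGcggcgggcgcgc
The Skap2 stretch held 24 CpG dinucleotides and 64.0% G and C, and 88.0% of all 32817 promoter stretches of this length held fewer CpG. The Snx10 stretch held 11 CpG and 48.4% G and C, with 64.5% of promoters below it and a median of 6 over all. The GC box occurred 2 times before Skap2 and 1 time before Snx10, and 32.7% of all promoters held it. The motif CCAAT, searched on both strands, occurred 2 times before Skap2 and 1 time before Snx10, against 33.8% of all promoters with at least 1 match. One of the Skap2 matches overlaps a GC box. The motif TATAAA occurred in neither, against 12.4% of all promoters. These matches describe letters and not bound sites.

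At the Skap2 start, H3K4me3 was listed in the 3 NP23 lines and not in 7298/2, and it was far wider in the AML line. In 748T it formed 1 peak of 1634 bp (chr6:51961966-51963599) with a mean height of 42.0 reads and a maximum of 129. In 106A it formed 2 peaks, of 742 bp (chr6:51961855-51962596, maximum 138 reads) and 889 bp (chr6:51962771-51963659, maximum 57 reads), separated by 174 bp. The NP23 pre-T lines thus carried nearly the same number of marked bases, 1634 and 1631. Most of these bases lay upstream of the start position of the rule, which the 748T peak and the 742 bp peak of 106A crossed.

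In 961C a single peak of 10922 bp ran from 51952513 to 51963434, with a mean height of 24.6 reads and a maximum of 95. Only 13 of the 17696 H3K4me3 peaks of 961C were wider, and 97.3% were lower. Peaks of 10 kb or more made up 0.0848% of that list. The 961C peak ended within the stretch marked in the pre-T lines on the upstream side, so the extra width lay on the gene side. It reached about 9.49 kb into Skap2 from the start position of the rule, which is given to the nearest kb, where the 748T and 106A peaks reached 0.034 and 0.145 kb. Peaks of 748T covered 13.4% of the 961C domain and those of 106A covered 12.9%. The 961C domain held 6.69 times the mean marked bases of the pre-T lines (1632.5 bp ± 2.12, SD, n = 2 lines). That small SD leaves out the gap between the 2 peaks of 106A. Joined across 1 kb, they spanned 1805 bp, against 1634 bp in 748T.

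**Figure D1:**
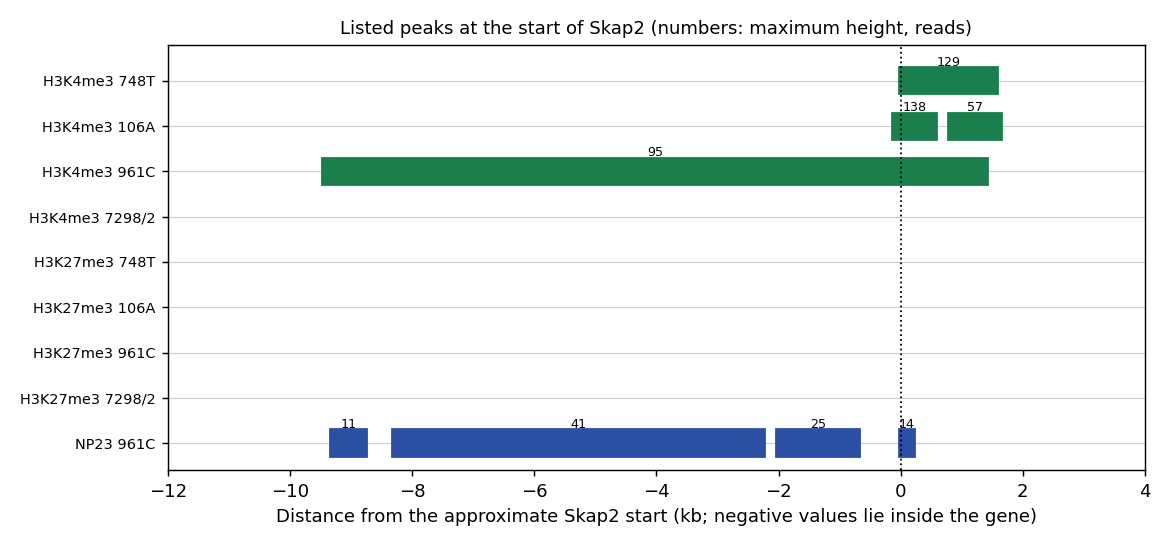
Peaks listed in each of the 9 lists around the Skap2 start, by distance in kb from the start position given by the rule, with gene body to the left. Each bar is 1 peak and the number above it is its maximum height in reads. The H3K4me3 bar of 961C runs 9.49 kb into the gene while those of 748T and 106A begin at the start, and 7298/2 has no bar.

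Over the whole mouse genome, H3K4me3 peaks of the 4 lines merged into 25059 regions. Of these, 352 (1.40%) had H3K4me3 in every NP23 line but none in 7298/2. The count was 779 when 106A was left out, and 229 with only peaks at or above their list's median height. The Skap2 start was among them, and so was a site in the Snx10 window; this is the pattern that led to the choice of windows. Regions that lacked only 748T numbered 157 (0.627%), those that lacked only 106A 520 (2.08%), and those that lacked only 961C 1433 (5.72%). Among the 352, only 1 region had more marked bases in 961C than Skap2, the Hoxa domain at chr6:52156421-52185551. Regions whose marked bases in 961C were at least 5 times the pre-T mean numbered 8 of 352 (2.27%), and 26 of 9815 (0.265%) when presence in 7298/2 was ignored. With an NP23 peak of 500 bp or more in the region it was 10 of 142 (7.04%), Skap2 included. Skap2 was 1 of the 8, and the only 1 of them with an NP23 peak. The other 7 had 1135 to 4357 marked bases in 961C. The median ratio over the 352 regions was 0.971, so these regions were not wider in 961C as a rule.

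**Figure D2:**
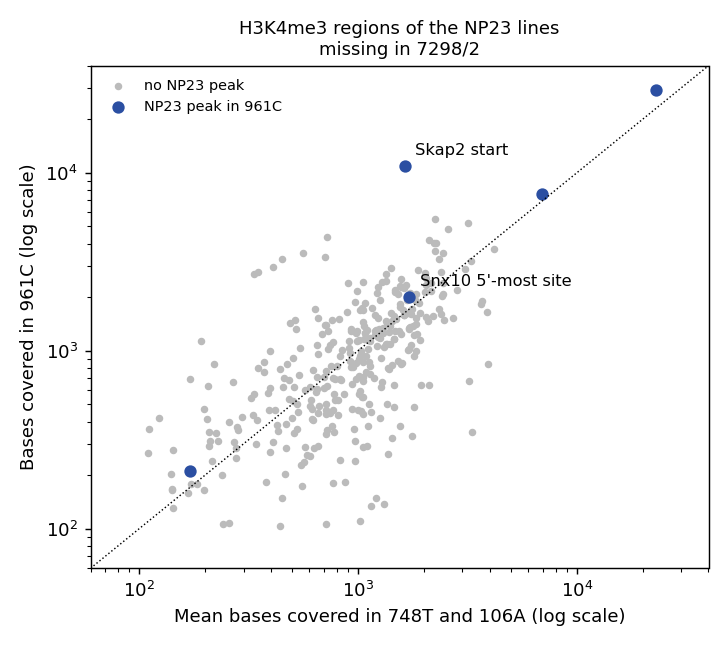
Marked bases in 961C against the mean of 748T and 106A for the 352 H3K4me3 regions of the NP23 lines that are missing in 7298/2, both axes logarithmic, with the dotted line at equal values. Large dots hold an NP23 peak. Skap2 lies above the line, at 10922 against 1632.5 bases, and the 5′-most Snx10 site lies close to it, at 2000 against 1709.

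NP23 in 961C lay along the gene side of the Skap2 domain and little at its promoter end. Its 4 peaks covered 8367 bases, 76.6% of the H3K4me3 domain, against a median of 31.0% over the 241 NP23-holding H3K4me3 peaks of 2 kb or more. That median is mostly of narrower peaks. Across the 15 broadest domains of 961C, all at least 10 kb wide, NP23 cover ran from 73.2% to 98.2%. Skap2 stood near the low end of these, with only 73.2% and 73.6% below it, so its cover was not unusual for its width. In all, 4.96% of the H3K4me3 peaks of 961C held NP23. The peak nearest the far edge was 600 bp wide (chr6:51952657-51953256), with a maximum of 11 reads. The main peak was 6106 bp wide (chr6:51953668-51959773), with a mean of 15.4 and a maximum of 41 reads, and 9 of 1629 NP23 peaks were wider. Toward the start followed a peak of 1389 bp (chr6:51959954-51961342, maximum 25 reads). The last, at the start itself, was 272 bp wide (chr6:51961970-51962241, maximum 14 reads). Its second-track mean (a track in the list that is not explained, read here as background) was 1.10 reads, against 0.134 for the median NP23 peak and 0.426 at the main peak. Whether background had a part in this small peak was not tested. The remaining 1193 bp of the domain on the upstream side held no NP23 peak.

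Split by where the pre-T lines were marked, the Skap2 domain had NP23 over 86.7% of the 9342 bases marked in 961C alone. Over the 1580 bases also marked in 748T or 106A the share was 17.2%. Both orders occurred elsewhere. Of 103 NP23-holding H3K4me3 peaks with at least 1 kb marked in 961C alone and some stretch shared, 79 had the higher NP23 share in the shared stretch and 23 in the 961C stretch. Their median shares were 70.8% and 41.8%. Among the 14 of these of 10 kb or more, the widths nearest to Skap2, it was 8 and 6, Skap2 included among the 6. The order at Skap2 was thus found in other broad domains, but the size of the gap was not. Its 17.2% was the lowest NP23 share of a shared stretch among the 14, and the others had 65.4% to 100%. An NP23 share of the 961C stretch at least as high as that of Skap2 was found in 16 of the 103, Skap2 included. At the Hoxa domain, 192986 bp further along, NP23 covered 98.6% of the shared stretch and 96.1% of the 961C stretch. The comparison was chosen after the Skap2 values were seen.

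The Snx10 window held 3 H3K4me3 sites, and only the 5′-most followed the NP23 lines. Snx10 is transcribed toward higher coordinates in RefSeq. The sites are named by position, since no mm9 gene model tied them to a start here. The 5′-most site was marked over 1647 bp in 748T (chr6:51473788-51475434, mean height 16.9 reads, maximum 38). In 106A it was marked over 1771 bp (chr6:51473745-51475515, mean 31.6, maximum 75), and in 961C over 2000 bp (chr6:51473492-51475491, mean 18.4, maximum 50). In 7298/2 no H3K4me3 peak was listed there. The 3 widths differed by little: 961C had 1.17 times the pre-T mean of 1709 bp ± 87.7 (SD, n = 2 lines). The peaks were of moderate height for their lists, with 33.5% of 748T peaks, 41.2% of 106A peaks and 59.1% of 961C peaks lower.

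NP23 at this Snx10 site was 1 peak of 550 bp (chr6:51474062-51474611) with a mean height of 5.66 and a maximum of 14 reads. It covered 27.5% of the H3K4me3 peak and lay wholly in the stretch also marked in the pre-T lines, where it covered 31.5%. The width exceeded that of 82.7% of NP23 peaks, and 54.4% were lower. Its second-track mean of 0.182 reads was near the list's median. Snx10 and Skap2 were 2 of the 5 regions among the 352 (1.42%) that held NP23.

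The next Snx10 site downstream was marked in all 4 lines, a class of 37.8% of merged regions, and held no NP23 peak. Its width was 562 bp in 748T (chr6:51495330-51495891, maximum 17 reads) and 1438 bp in 106A (chr6:51494564-51496001, maximum 68 reads). It was 1765 bp in 961C (chr6:51494291-51496055, maximum 50 reads) and 414 bp in 7298/2 (chr6:51495323-51495736, maximum 23 reads). Here 748T stood with 7298/2, and 106A with 961C. The pre-T lines with the fusion differed from each other by more than 748T did from the control (pre-T mean 1000 bp ± 619, SD, n = 2 lines). In 7298/2 this was the single H3K4me3 peak in either window, and 21.2% of its list was lower.

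Further members were private to 1 line. In 748T another Snx10 site of 557 bp (chr6:51542367-51542923) reached 61 reads, more than either other peak of that line in the window. Regions of 748T alone made up 6.92% of all merged regions. In 106A a peak of 229 bp deep in the Skap2 window (chr6:51807851-51808079) reached 12 reads, and 1.42% of its list was lower. Its second-track mean was 2.18 reads, against a list median of 1.46. Regions of 106A alone made up 5.84%.

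**Figure D3:**
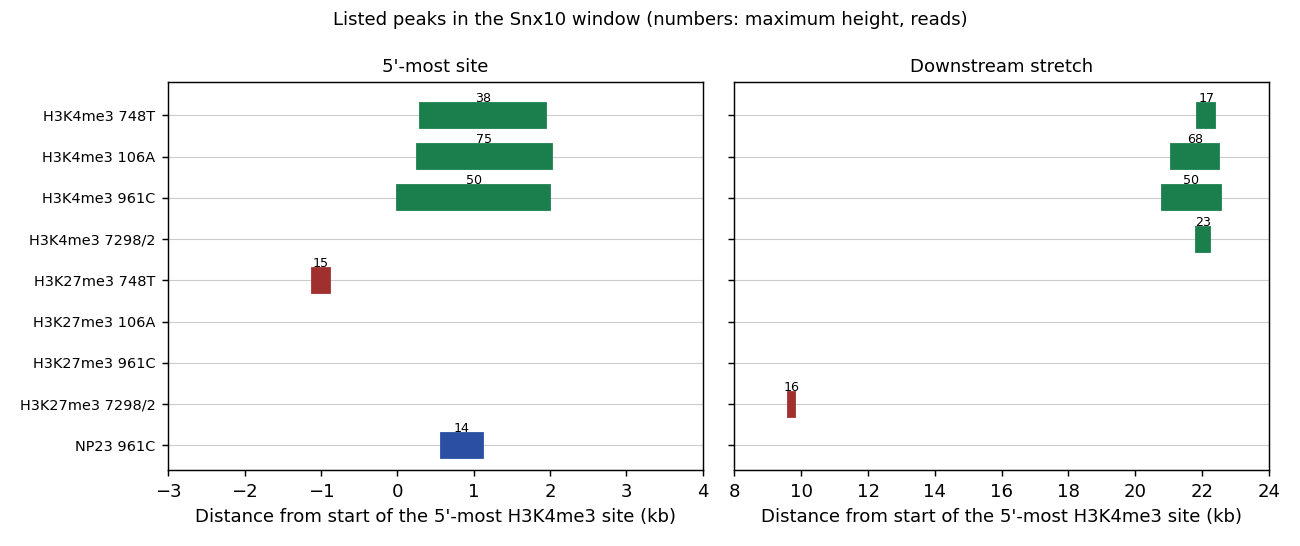
Peaks listed in each list at the 5′-most Snx10 site (left) and over the stretch that follows (right), by distance in kb from the start of the 5′-most merged site. Bars are peaks and numbers are maximum heights in reads. The left panel shows H3K4me3 in 748T, 106A and 961C with 1 NP23 peak and none in 7298/2, and the right panel shows the site of all 4 lines; the site of 748T alone lies beyond the right panel.

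Within each list, the sites were also set against the widest neighbouring region marked in all 4 lines, chr6:51415563-51422930, in the 100 kb before the Snx10 window. This comparison was added after the values were seen. That region carried 5991 marked bases in both 748T and 106A, with maxima of 141 and 154 reads. It carried 7368 in 961C (maximum 85 reads) and 5776 in 7298/2 (maximum 159 reads). In 961C the region also held 5 NP23 peaks, which covered 23.9% of it, so it is no NP23-free reference for that line. The Skap2 start reached 91.5% of the neighbour's maximum in 748T, 89.6% in 106A and 112% in 961C. The 5′-most Snx10 site reached 27%, 48.7% and 58.8% in the same order. The downstream Snx10 site reached 12.1%, 44.2% and 58.8%, and 14.5% in 7298/2. Both Snx10 sites were thus lower in 748T than in 106A and 961C on this scale. By rank in the whole list, the tallest peak at the Skap2 start stood above 83.7% of peaks in 748T, 77.2% in 106A and 97.3% in 961C, or 1.7, 1.42 and 2.5 times the median maximum. The 2 scales therefore differ on how far 961C stands above the pre-T lines at Skap2. The lowest maximum of any listed H3K4me3 peak in 7298/2 was 5 reads and 5% of its peaks had maxima of at most 13 reads. Marking below the unstated threshold of the caller would not be listed.

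**Figure D4:**
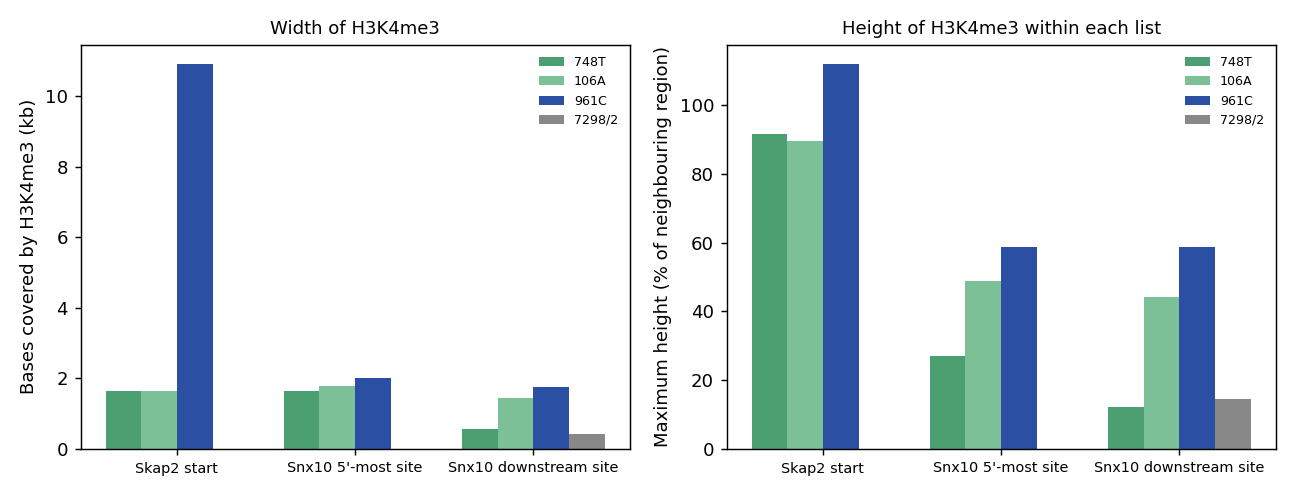
H3K4me3 at the Skap2 start and the first 2 Snx10 sites in the 4 lines, as marked bases in kb (left) and as maximum height in percent of the neighbouring region of the same list (right); each bar is 1 library, so there are no error bars. At Skap2 the 961C bar is 10.922 kb against 1.634 and 1.631 kb on the left while the heights on the right are 89.6% to 112%, and 7298/2 has a bar only at the downstream Snx10 site.

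H3K27me3 peaks were few in both windows, 4 over the 4 lists, and overlapped none of the H3K4me3 or NP23 members. In 7298/2 there were 3 peaks. One lay in the Snx10 window (chr6:51483098-51483322, 225 bp, maximum 16 reads), 12000 bp before its H3K4me3 peak. The others lay in the Skap2 window, at chr6:51834219-51834344 (126 bp, maximum 13 reads) and chr6:51896307-51896534 (228 bp, maximum 12 reads), 128 and 65.5 kb inside the gene from the start position. The chromosome-wide rate of that list would put 0.565 peaks in both windows together. In 748T the only H3K27me3 peak (chr6:51472378-51472605, 228 bp, maximum 15 reads) ended 1182 bp before the H3K4me3 peak of the 5′-most Snx10 site, against a rate of 0.685. Lines 106A and 961C had 0, where their chromosome 6 rates would give 0.598 and 2.48 peaks. None of the Skap2 or Snx10 sites missing H3K4me3 in 7298/2 was listed with H3K27me3 there. With so few peaks, differences between lines in H3K27me3 were not tested.

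The edges of the windows bear on these counts. Just outside the Snx10 window, 748T had an H3K4me3 peak of 883 bp (chr6:51562388-51563270, maximum 82 reads) and 961C one of 204 bp (chr6:51562444-51562647, maximum 13 reads). Just outside the Skap2 window, 748T had 1 H3K27me3 peak (chr6:51784968-51785195, 228 bp). Between the windows, 961C had 3 H3K4me3 peaks, the 204 bp peak among them. A peak of 426 bp (chr6:51586389-51586814) lay in a region also marked in 748T (562 bp) and 7298/2 (182 bp). A short peak of 109 bp (chr6:51771392-51771500) met an NP23 peak of 105 bp. In the 100 kb before the Snx10 window, 961C had 8 H3K27me3 peaks of up to 1575 bp, over 5146 bases in all. On that side 748T and 7298/2 had 1 each and 106A had none. In the 100 kb beyond the Skap2 window, 961C had 10 H3K27me3 peaks of up to 623 bp, over 2407 bases, and no H3K4me3 or NP23 peak. There 748T had 1 H3K4me3 peak, 106A had 2 and 7298/2 had neither mark. Between the Skap2 and Hoxa domains, 961C had 11 H3K27me3 peaks and 1 H3K4me3 peak, the latter of 642 bp within a region (chr6:52108117-52109840) also marked in 748T and 106A. The H3K27me3 list of 961C was the longest, at 19469 peaks against 8412 in 748T, 5600 in 106A and 4875 in 7298/2. On chromosome 6 it held 8.54 peaks per Mb, against 2.36, 2.06 and 1.95 in the same order. How far list length accounts for the H3K27me3 counts outside the windows was not tested.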

How the data were processed

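Chromatin of 4 mouse cell lines was immunoprecipitated for H3K4me3, H3K27me3 or V5-tagged NP23 and sequenced. The series has 13 samples. The 9 with a peak list were used, and the 4 input samples were not. The submitters' processing notes name CASAVA 1.9, BWA 0.5.9-r26 and build mm9. The caller's name and thresholds were not given in the sources used here. The authors called peaks per library, per the lists themselves, and deposited start, end and a text field with the mean and maximum pileup signal of the sample and of a second track, which 5 rows lack.

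Groups were set by cell type and antibody in the labels, with 748T as sample 1 and 106A as sample 2 of NP23 pre-T. Starts were converted to count from 1. A peak was a member when at least 1 bp overlapped a window, and H3K4me3 regions were formed by merging overlapping peaks of the 4 lists. With 1 library per line and mark, no test was made. Coverage and merging were tested on simulated data. The windows and comparisons were chosen with earlier results of these data known. Every peak in the windows is named. The gene lists and cell type markers planned for an mm9 annotation were not used, and promoters came from RefSeq by symbol (2 of 2 genes matched). Python 3.11.15, numpy 2.4.6 and pandas 2.3.3 were used.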

Additional observations from a re-analysis of the deposited data

How the results depend on the processing

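Values were held against the SD of the 2 NP23 pre-T lines for H3K4me3 bases and widths, against 1.5 times for counts and NP23 shares, and against no tolerance for NP23 bases. Only the wider windows could have added H3K4me3 of 7298/2 at Skap2, and they added none. Requiring 50% of a peak in the window could move no value, since every member lay wholly inside its window. With only peaks at or above their list's median height, H3K4me3 of the Snx10 window fell to 0 bases, and the widest peak to 0, in 748T, 106A and 7298/2, while 961C kept its value. Under that limit H3K4me3 of 106A in the Skap2 window was 742 bases, NP23 at Skap2 covered 7767 bases, and the regions of the NP23 lines missing in 7298/2 numbered 229 against 352. Joining peaks across 1 kb gave 106A 2034 bases in the Skap2 window and a widest peak of 1805 bp. Windows extended by 25 kb gave 3649 bases of H3K4me3 in the Snx10 window of 748T, 8472 bases of NP23 and 1 H3K27me3 peak of 748T at Skap2. Leaving out 748T or 106A gave 482 or 779 regions of the NP23 lines missing in 7298/2, so the count rises most without 106A. With NP23 peaks of 500 bp or more only, an alternative added after seeing the data, the shared stretch of Skap2 had an NP23 share of 0% and the 961C stretch kept 86.7%. Among 961C peaks of 10 kb or more, also added later, 57.1% had the higher share in the shared stretch, against 76.7% of all those compared. Without 748T or 106A the shared stretch held 19.3% or 18.5%. No paired analysis was possible because no result comes from a test. Depth is unknown, and it limits how far a missing peak can be read as missing mark.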
